A study of Mus musculus with 2 samples.

Results

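The hepatic plasma carrier proteins are secreted proteins that the liver releases into blood to hold lipids, hormones, vitamins, metals and heme in solution. The transcripts of 10 such genes were followed in embryonic mouse hearts: Alb, Afp, Afm, Gc, Ttr, Trf, Ambp, Rbp4, Serpina6 and Hpx. They were picked by symbol, and all 10 had an entry among the 55348 genes of both count tables. The group was chosen by its read counts in these same libraries, where liver transcripts had already been seen to be high in the mutant, so every difference given here for the 10 genes is a description and carries no test. The RNA came from hearts of strain 129sv at E13.5. One library was wild type and the other was Lmna H222P/H222P, homozygous for a missense mutation in the gene of lamins A and C that serves as a mouse model of laminopathy. The labels list no treatment, and neither the number of hearts per library nor the sex of the embryos is stated in the labels. With 1 library per genotype there was no replicate check. All 95% intervals cover counting error only and leave out variation between embryos. No molecular identifiers were counted and 1 molecule can give several reads, so the intervals may be too narrow even for counting error.

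Albumin and its relatives (alpha-fetoprotein, afamin and the vitamin D-binding protein encoded by Gc) form 1 gene family. In the embryo, hepatoblasts switch these genes on early, and yolk sac visceral endoderm also makes several of them. Alpha-fetoprotein is the main plasma protein of the fetus and is replaced by albumin after birth. Transthyretin and the retinol-binding protein encoded by Rbp4 travel together as the carrier of thyroid hormone and vitamin A. Transferrin (Trf) carries iron and hemopexin (Hpx) carries heme. Serpina6 encodes the corticosteroid-binding globulin, and Ambp encodes a precursor that is cut into the small lipocalin alpha-1-microglobulin and the protease inhibitor bikunin.

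The 4 genes of the albumin family lie on 1 chromosome, and their promoters are shown because they share a run of letters and all 4 transcripts were higher in the mutant library. Each window covers bases 170 to 21 before the RefSeq start, read 5′ to 3′ on the gene's own strand (RefSeq, GRCm38.p6, the same assembly as mm10). The Alb window is chr5:90460700-90460849 and the Afp window chr5:90490544-90490693, both on the plus strand. The Afm window is chr5:90518779-90518928 on the plus strand and the Gc window chr5:89457919-89458068 on the minus strand. Capitals mark GTTAATNAT, the run of letters that the 4 windows share.
Alb: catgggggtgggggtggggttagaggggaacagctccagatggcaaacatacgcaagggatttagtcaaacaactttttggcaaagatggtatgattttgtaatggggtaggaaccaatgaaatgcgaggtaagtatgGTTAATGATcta
Afp: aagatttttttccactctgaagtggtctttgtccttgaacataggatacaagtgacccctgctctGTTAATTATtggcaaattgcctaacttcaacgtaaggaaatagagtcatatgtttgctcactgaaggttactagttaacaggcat
Afm: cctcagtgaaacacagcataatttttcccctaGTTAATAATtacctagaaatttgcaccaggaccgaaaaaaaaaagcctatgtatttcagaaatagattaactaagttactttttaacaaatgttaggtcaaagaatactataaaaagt
Gc: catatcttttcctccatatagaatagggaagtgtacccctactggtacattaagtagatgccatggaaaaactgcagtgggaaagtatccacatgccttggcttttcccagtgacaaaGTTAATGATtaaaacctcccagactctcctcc

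Searched on both strands over the 250 bases before the start, GTTAATNAT occurred in all 4 family promoters and in 0.737% of 32851 mouse promoters of that length (242 promoters). This 9-letter form was picked after the 4 sequences had been read. The shorter run GTTAAT, which it contains, stood in 6.43% of promoters. The match began 32 bases before the RefSeq start in Alb, 52 in Gc, 105 in Afp and 138 in Afm. The GENCODE starts of Alb, Afp and Afm given below lie at other bases than the RefSeq starts. These distances, and the order of Afp and Afm among them, depend on the start used. RefSeq promoters were matched for 7 of the 10 genes. The other 3, Ambp, Hpx and Rbp4, had no match to either form in this window, and Trf, Serpina6 and Ttr were not searched. The C/EBP-like run TTGCNNAA was found in Alb, Afp, Hpx and Rbp4 and in 9.56% of all promoters, and TATAAA in Afp, Afm and Rbp4 and in 12.4%. A match describes letters and is not evidence of binding.

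All 10 carrier transcripts were higher in the H222P library. Together they held 976 of 32669225 reads on genes in the wild-type library, 0.00299% (exact binomial interval 0.00280 to 0.00318), and 153371 of 25120790 in the H222P library, 0.611% (0.607 to 0.614). Alb and Afp made up most of the H222P sum. Without both, the other 8 genes held 0.00234% (0.00218 to 0.00251) and 0.0848% (0.0836 to 0.0859). In a bulk library, more cells of a type and more RNA per cell cannot be told apart.

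Levels between libraries are given as CPM, counts per 1000000 reads assigned to genes after TMM scaling. A gene was counted as higher when its ratio was at least 2-fold and its mean level at least 1 CPM, and all 10 carriers were, against a background of 5.95% of 14716 genes (876 higher, and 640 lower). Scaled by total reads alone, 1076 genes were higher and 449 lower. Scaled by 17 cardiomyocyte genes, the median log2 ratio of all genes moved from −0.01 to 0.93, so negative ratios smaller in size than this shift change sign under that setting. All 10 were also at least 10-fold higher, against 1.49% of genes, and 6 were at least 100-fold higher, against 0.319%. The rule behind the group used this contrast, so nothing is read from these counts. All 10 passed the filter on low counts, but 7 of them were under 1 CPM in the wild-type library and passed only through the H222P library. The 3 with at least 1 CPM in wild type were Alb, Afp and Trf. The median log2 ratio over the 10 genes was 7.85, beside −0.01 over the 14716 genes. It was 7.06 with the 0 wild-type reads of Afm set to a floor of 3 reads. With a prior count of 5 it was 6.51, and scaled by the cardiomyocyte genes 8.79.

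**Figure D1:**
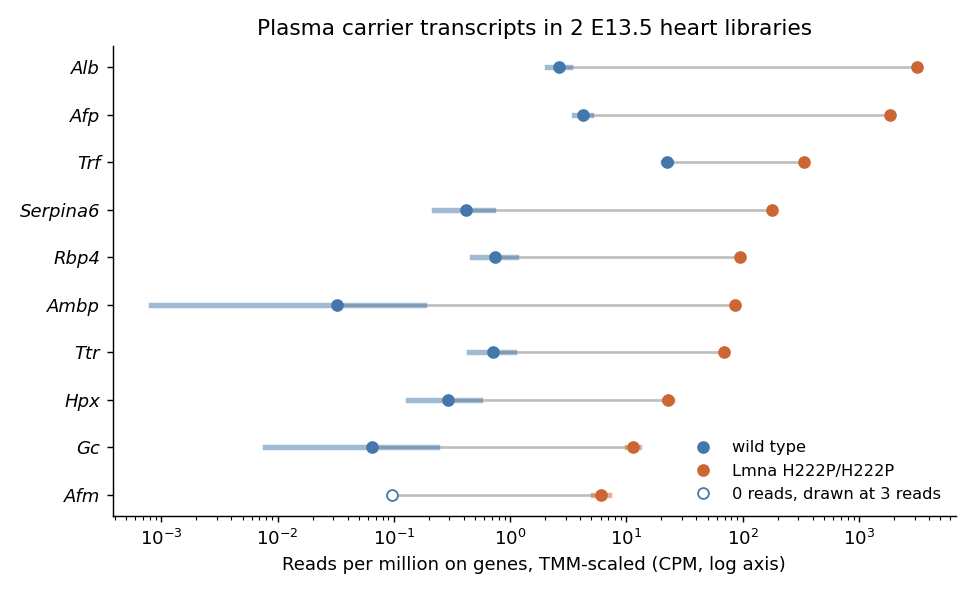
Level of each carrier transcript in CPM (log axis) in the wild-type library (blue) and the Lmna H222P/H222P library (orange), with thick bars for the exact 95% Poisson counting interval. Every orange point lies right of its blue partner; Trf has the highest wild-type level at 22.4 CPM, and Alb the highest H222P level at 3140.3 CPM.

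By level per length in the H222P library, the albumin family held both the highest and the lowest of the 10 genes. Alb, on chromosome 5 from 90460897 to 90476602 (GRCm38, like all positions given), was read 81 times in wild type, 2.61 CPM, and 83174 times in the H222P library, 3140.3 CPM. The ratio was 1201-fold (966 to 1513), so the wild-type level was 0.0832% of the mutant level. Afp (chromosome 5, 90490737 to 90508907), which begins 29.8 kb beyond Alb on the same strand, had 130 and 48905 reads, 4.20 and 1846 CPM. Its ratio was 440.1-fold (371 to 527). The intervals of Alb and Afp do not overlap, and Alb differed more between the libraries than Afp did. Per length, Afp stood at 1.12 times Alb in the wild-type library (0.839 to 1.49) and at 0.409 times Alb in the H222P library (0.404 to 0.413).

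The other family members were far less abundant. Afm, afamin, a carrier of vitamin E (chromosome 5, 90518932 to 90553543), had 0 wild-type reads and 160 H222P reads, 6.04 CPM. Against a floor of 3 reads, which is 0.0968 CPM in the wild-type library, Afm was 62.4-fold higher. Its counting interval began lower, at 50.2-fold, and had no upper end. Gc (chromosome 5, 89417522 to 89457898) had 2 and 303 reads, 0.0645 and 11.4 CPM, a log2 ratio of 7.15 with a wide interval of 5.60 to 10.52. In the H222P library, Afm reached 0.00148 times the level per length of Alb (0.00126 to 0.00173) and Gc 0.00462 times (0.00412 to 0.00518). Gc and Afm were thus the lowest of the 10 genes there.

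The levels of the vitamin A and thyroid hormone carriers were not resolved from each other in wild type, while Rbp4 stood above Ttr in H222P. Ttr (chromosome 18, 20665280 to 20674321) had 22 and 1818 reads, 0.710 and 68.6 CPM, a ratio of 96.7-fold (63.7 to 155). Rbp4 (chromosome 19, 38116629 to 38125281) had 23 and 2507 reads, 0.742 and 94.7 CPM, a ratio of 128-fold (84.8 to 202). The intervals of their ratios overlap, so neither ratio is placed above the other. Per length, Ttr stood at 1.08 times Rbp4 in wild type (0.576 to 2.03) and at 0.821 times in H222P (0.773 to 0.873). The intervals of this proportion overlapped between the libraries, whereas those of Afp over Alb did not.

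Transferrin stood apart at the low end. Trf (chromosome 9, 103204001 to 103230444) was read 695 times in wild type, 22.4 CPM, with 8924 H222P reads, 337 CPM. Its ratio of 15.0-fold (13.9 to 16.2) was the lowest of the 10, and its interval lay below those of the other 9. Trf alone made up 71.2% of the group's wild-type reads but 5.82% of its H222P reads, where Alb made up 54.2% and Afp 31.9%. Relative to Alb per length, Trf went from 6.05 times (4.80 to 7.72) in wild type to 0.0757 times (0.0740 to 0.0774) in H222P. Trf is also transcribed by cells outside the liver. Hpx, the heme carrier (chromosome 7, 105591613 to 105600137), had 9 and 603 reads, 0.290 and 22.8 CPM, a ratio of 78.4-fold (41.0 to 172).

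The steroid carrier and the lipocalin precursor had very few wild-type reads. Serpina6 (chromosome 12, 103646630 to 103657212) had 13 and 4717 reads, 0.420 and 178 CPM, a ratio of 424-fold (248 to 798). Ambp (chromosome 4, 63143275 to 63154799) had 1 and 2260 reads, 0.0323 and 85.3 CPM. Its log2 ratio of 10.78 rested on that 1 read and its interval ran from 8.89 to 16.67, so its place above Alb is not resolved at this depth. The whole interval lay beyond 10-fold for all 10 genes and beyond 100-fold for 4 of them.

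**Figure D2:**
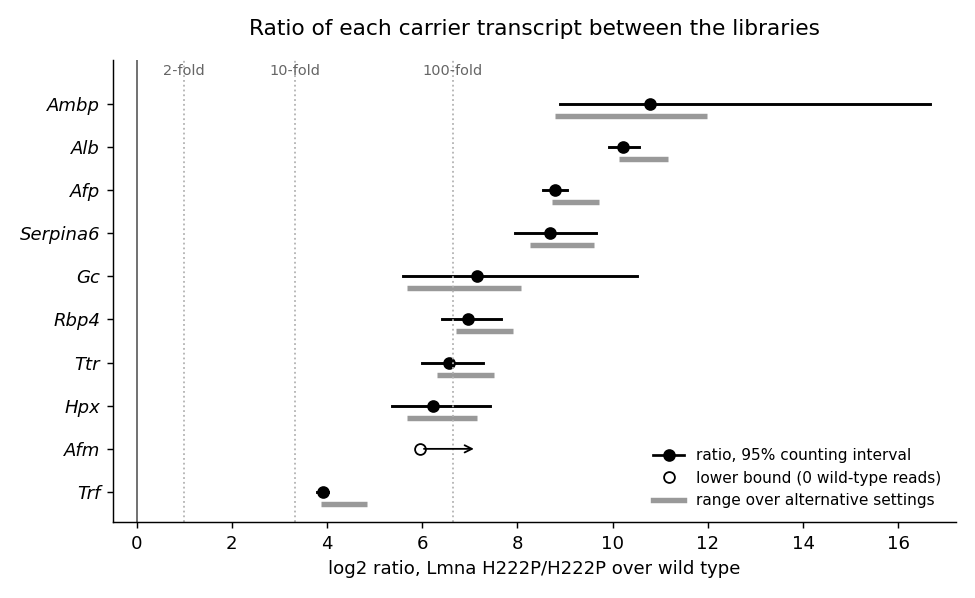
Log2 ratio of each carrier transcript, Lmna H222P/H222P over wild type, with the 95% counting interval (black) and, for all but Afm, the range over 10 alternative settings (grey). Trf lies lowest at 3.91, Afm is drawn at its lower bound of 5.96, and the widest interval is that of Ambp, with 1 wild-type read.

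Levels of different genes were compared per length, as RPKM, reads per kb of annotated exon and per 1000000 reads on genes. In the wild-type library Trf was first at 6.41 RPKM, followed by Afp at 1.18, Alb at 1.06, Ttr at 0.568, Rbp4 at 0.524, Serpina6 at 0.226, Hpx at 0.184, Gc at 0.0332, Ambp at 0.0217 and Afm at 0. Within counting error, the order was not resolved between Afp and Alb, Ttr and Rbp4, Serpina6 and Hpx, Gc and Ambp, or Ambp and Afm. In the H222P library Alb was first at 1414 RPKM, followed by Afp at 578, Trf and Serpina6 both at 107, Rbp4 at 74.3, Ambp at 63.9, Ttr at 61.0, Hpx at 16.0, Gc at 6.54 and Afm at 2.10. There the pairs Trf and Serpina6 (interval of their ratio 0.969 to 1.04) and Ambp and Ttr (1.05, 0.983 to 1.11) were not resolved, and the other neighbours were.

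Set among 21549 protein-coding genes of the H222P library, Alb ranked 9 and Afp 29 by level per length. Myl7, the atrial regulatory light chain of myosin, ranked 10 there at 1309 RPKM, and Actc1, cardiac actin, ranked 5 at 2104. In the wild-type library Alb ranked 11153 and Afp 10960. Both libraries carried the defining transcripts of cardiac muscle. The 17 cardiomyocyte genes summed to 3.73% of wild-type and 2.17% of H222P reads, and none of them was at 0. Of these 17, 8 were at least 2-fold lower in the H222P library and 0 were higher (median log2 ratio −0.92). The part of this difference in the carrier ratios was not tested beyond the scaling by these genes given at the end.

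**Figure D3:**
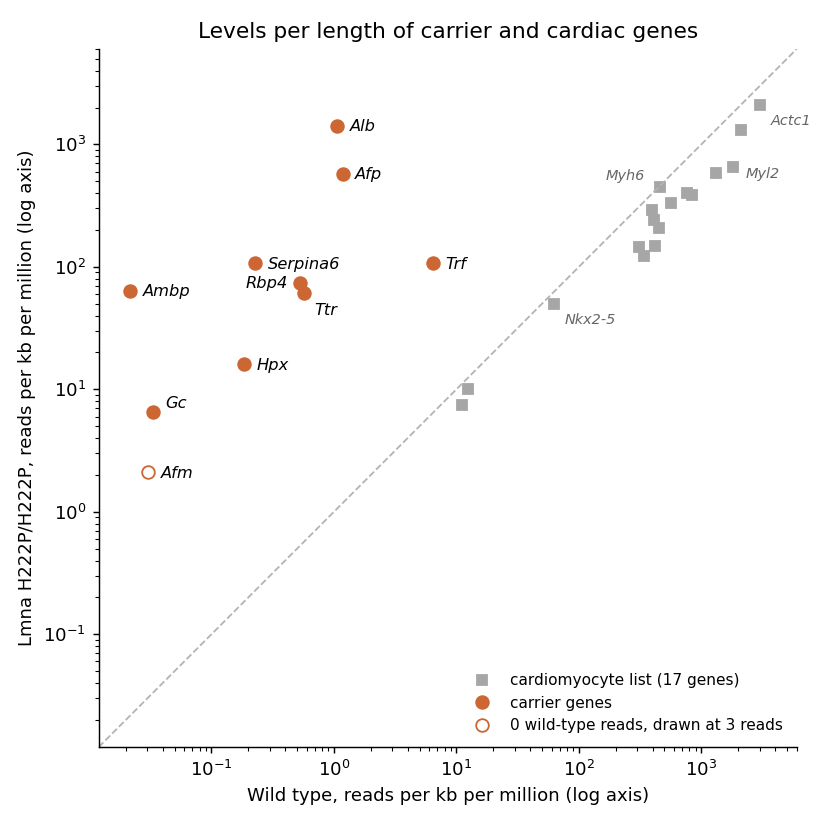
Level per length (RPKM) in the wild-type library (x) and the Lmna H222P/H222P library (y), both log axes, for the carriers (orange) and the 17 cardiomyocyte genes (grey); the dashed line marks equal levels. Among the cardiac genes, which all lie below the line, only Actc1 lies higher on the y axis than Alb at 1414 RPKM; Afm is drawn at the floor of 3 wild-type reads.

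The H222P library also held other liver products. Of 22 other plasma carriers and binding proteins, 12 were measured at a mean of at least 1 CPM, 10 of them at least 2-fold higher and 1 lower, with a median log2 ratio of 5.58. Apom, a carrier of sphingosine-1-phosphate on lipoproteins, had 4 and 775 reads and was 227-fold higher (88.2 to 834). Itih2, a heavy chain that is joined to the bikunin part of the Ambp product, had 41 and 4810 reads, a ratio of 137-fold. Itih1 had 1 and 150 reads, and Itih3 69 and 472, a log2 ratio of 2.99. Shbg, the sex hormone-binding globulin, had 2 and 142 reads, and Ahsg, fetuin-A, 36 and 1067, a ratio of 34.7-fold. The alpha-1-antitrypsin genes Serpina1a and Serpina1b had log2 ratios of 6.48 and 6.65, which are uncertain because the genes have near-identical copies, and how reads were split among these was not tested.

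Other plasma carriers were near equal, lower or at few reads. Selenop, a selenium carrier that many tissues make, had 4352 and 4424 reads, 1.19-fold (1.14 to 1.24). Cp, the copper protein ceruloplasmin, was 2.82-fold lower in the H222P library, with 66 and 20 reads. Hp, haptoglobin, which carries hemoglobin, had 11 and 41 reads, 4.36-fold higher (2.20 to 9.41), and was under the level filter. Serpina7, the thyroxine-binding globulin, had 0 and 35 reads and was also under the filter. It was 13.6-fold higher against the floor, with an interval that began at 10.5-fold. Orm1, Orm2, Azgp1 and Serpina3k had 0 reads in both libraries.

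Among lists of similar secreted proteins, 6 of 7 measured apolipoprotein genes were at least 2-fold higher (median 6.86), from Apoe at a log2 ratio of 0.21 to Apoa1 at 8.13. Of 19 measured coagulation and complement genes 17 were higher and 1 was lower (median 7.66, or 5.81 with genes without wild-type reads at their bound). Fga, a fibrinogen chain, stood at 9.76 with 1 wild-type read (7.87 to 15.65), so its place at the top of the list is not resolved. Hepatocyte enzymes and other intracellular proteins had 10 of 15 measured genes higher, 5 within 2-fold and a median of 2.45. Ugt2b34 stood highest there at 8.93 and Cyp27a1 lowest at −0.26. The summed reads of the 10 carriers were 0.611% of H222P reads. This exceeded the apolipoprotein list (0.0758%), the coagulation and complement list (0.0717%) and the intracellular list (0.0173%). Without Alb and Afp the other 8 carriers held 0.0848%, so most of the excess lay in those 2 genes. Because the 10 genes were chosen for their values, no difference between these lists was tested.

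**Figure D4:**
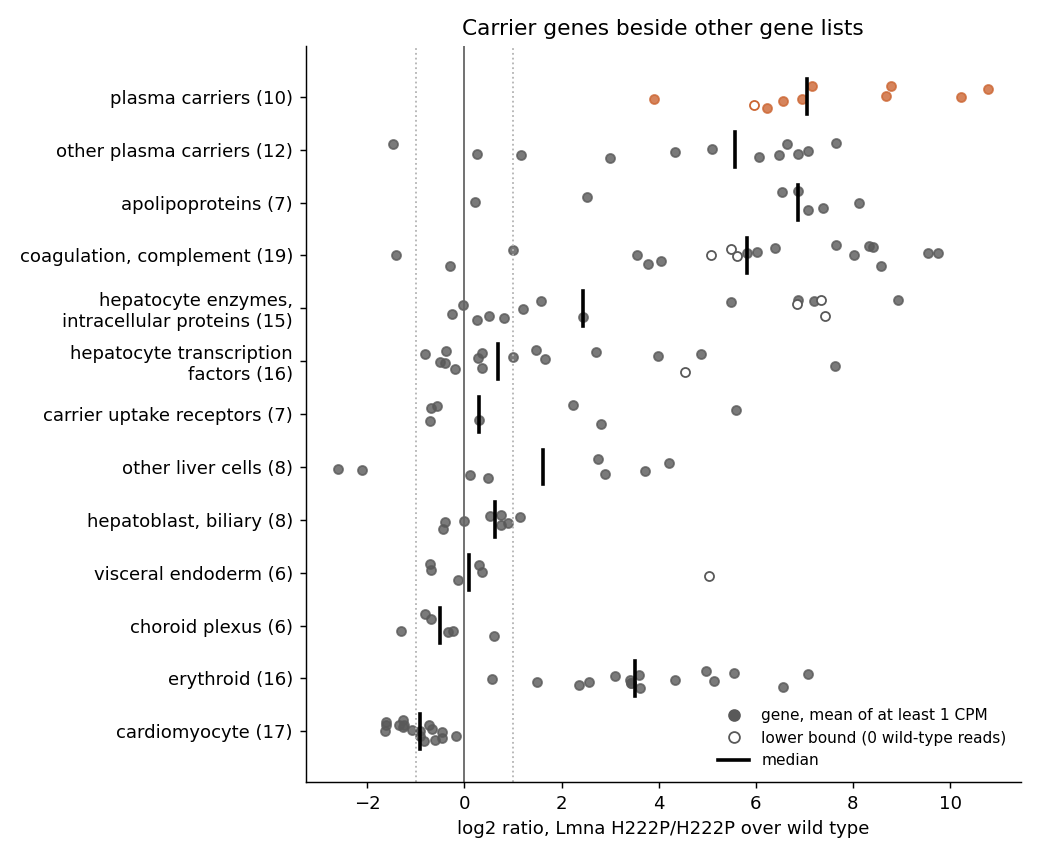
Log2 ratio, Lmna H222P/H222P over wild type, of each gene averaging 1 CPM or more in 13 gene lists (number of genes in brackets), with a black bar at the median taken with genes at their bounds; open circles are lower bounds for genes with 0 wild-type reads, and points are spread vertically only for legibility. The carriers lie between 3.91 and 10.78, while the lists for visceral endoderm, choroid plexus and cardiomyocytes have medians of 0.09, −0.51 and −0.92. Scaled by the cardiomyocyte genes, the choroid plexus median moves above 0. That setting puts the cardiomyocyte list itself near 0 by construction.

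Transcription factors of hepatocytes were mixed. Of 18 listed factors 16 were measured, 7 at least 2-fold higher and 9 within 2-fold (median 0.68). Hnf4a, which drives hepatocyte differentiation, had 3 and 597 reads, 233-fold higher (79.3 to 1132). Foxa3 had 5 and 138 reads. Nr1i2, the xenobiotic receptor PXR, had 0 and 60, 23.4-fold higher against the floor, with an interval that began at 18.4-fold. Onecut2 was 6.55-fold, Nr5a2 3.14-fold and Cebpa 2.79-fold higher. Foxa1 and Foxa2, which other endodermal epithelia also express, had log2 ratios of 0.36 and 0.27. Tbx3, with 428 and 730 reads, lay just under the threshold (interval 0.82 to 1.17 on the log2 scale). Prox1, Zhx2 and Zbtb20 had log2 ratios of −0.50, −0.37 and −0.82, which turn positive when scaled by the cardiomyocyte genes. Zhx2 and Zbtb20 are known as repressors of Afp in the liver after birth.

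The receptors that take up the carriers also differed among themselves. Of 7 measured receptor genes 3 were at least 2-fold higher and 4 lay within 2-fold (median 0.31, or 2.24 over the 5 that no other list holds). Tfrc, the transferrin receptor, had 6937 and 28052 reads, a ratio of 4.73-fold. Tfr2, the transferrin receptor of hepatocytes and erythroid cells, had 7 and 310 reads, a ratio of 51.8-fold. Stra6, a receptor for the Rbp4 product that imports retinol, had 40 and 243 reads, a ratio of 7.11-fold. Lrp1, which takes up heme-hemopexin, had a log2 ratio of 0.31, and Fcgrt, the receptor that recycles albumin, −0.57. Lrp2 and Cubn, which retrieve filtered carriers in kidney and yolk sac, had −0.69 and −0.71, and these 3 negative values turn positive when scaled by the cardiomyocyte genes.

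Markers of further tissues and cell types were set beside these values. The summed level of 16 erythroid genes was 343 CPM in the wild-type and 2159 CPM in the H222P library, 15 of 16 were at least 2-fold higher, and none was at 0. They ran from Alas2, a heme synthesis enzyme, at a log2 ratio of 0.56 to Hemgn at 7.08. In 12 genes of other liver cells (sinusoid, Kupffer and stellate cells) the sum was 48.4 and 134 CPM, with 4 of 8 measured genes higher and 2 lower. Lhx2, a stellate cell factor, was 19.3-fold higher, and the retinol-storing enzyme gene Lrat 6.10-fold lower. The 8 hepatoblast and biliary genes summed to 949 and 1118 CPM, with Sox9 2.22-fold higher and the other 7 within 2-fold. Most of both sums came from Gpc3 (612 and 610.1 CPM) and Dlk1 (182 and 306 CPM), so they say little about the other genes. The 9 visceral endoderm genes summed to 101 and 90.2 CPM, mostly from Dab2 at 70.7 and 64.8 CPM. Of 6 measured only Spink1, with 0 and 84 reads, was higher. The 9 genes of choroid plexus, a source of Ttr in brain, summed to 63.3 and 46.3 CPM, mostly from Aqp1 at 36.3 and 30.8 CPM. Otx2 had 0 reads in both libraries. Genes that hepatocytes switch on late were almost unread: 7 of 12, including Cyp2e1, Cyp1a2 and Mup20, had 0 reads in both libraries, and only Tdo2 was measured, at 38 and 33 reads. How far cells of these tissues contributed to the carrier reads was not tested.

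The neighbourhood of the albumin family did not share the size of its ratios. Within 1200 kb of the lower end of Alb lay 19 other protein-coding genes with an entry, of which 11 were measured. Of these 11, 3 were at least 2-fold higher and 2 lower (median log2 ratio −0.17). Over all 14716 genes, 5.95% were higher (876 genes) and 640 genes were lower. Ankrd17, 234 kb before Alb, had 5987 and 5677 reads, a log2 ratio of 0.15, and Cox18 −0.21. Adamts3, between Gc and Alb, had −0.17. Rassf6, 142 kb beyond, had 23 and 81 reads and was 4.12-fold higher. The platelet chemokine genes Ppbp and Pf4, products of megakaryocytes, had 4.32 and 3.15.

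**Figure D5:**
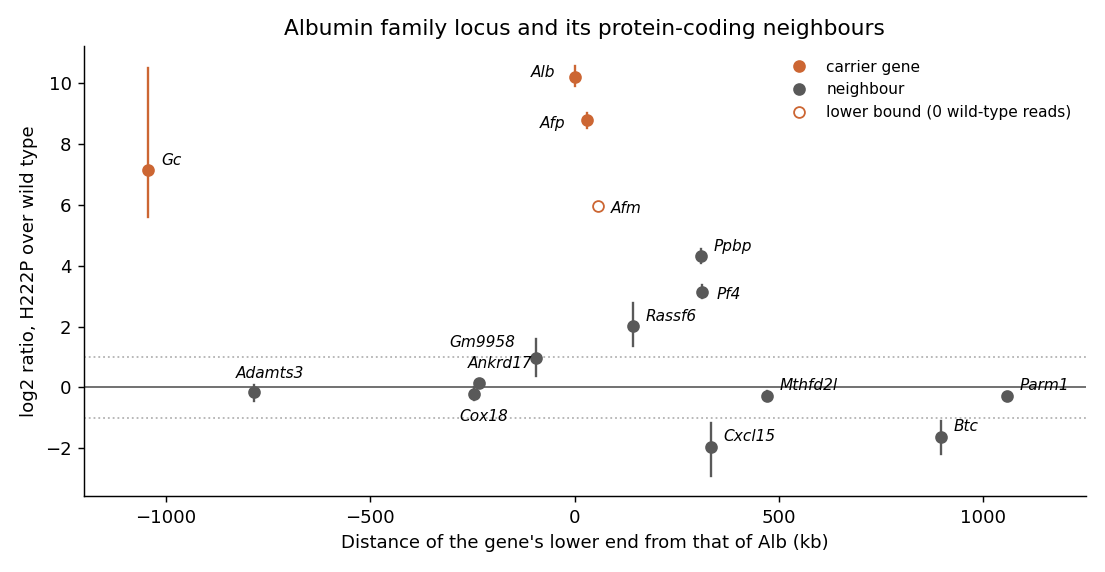
Log2 ratio, Lmna H222P/H222P over wild type, of measured protein-coding genes against the distance in kb of their lower genomic end from that of Alb, with 95% counting intervals. The family members (orange) lie above 5, and the 11 neighbours (grey) lie between −1.96 and 4.32.

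The nearest other protein-coding genes on either side of each carrier, 16 in all, gave 12 measured genes. Of these, 4 were at least 2-fold higher, against 5.95% of all genes, and 8 lay within 2-fold (median 0.19). Beside Serpina6, Serpina10 of the same serpin cluster had 1 and 440 reads, a log2 value of 8.42 (6.52 to 14.31). Beside Trf, the transferrin relative 1300017J02Rik had 41 and 323 reads, a ratio of 9.22-fold, while Srprb on the other side had a log2 ratio of −0.04. Beside Ambp, Kif12 was 3.98-fold higher and Zfp618 1.34-fold. Dsg2 and B4galt6 beside Ttr had log2 ratios of −0.13 and −0.20, and Apbb1 and Trim3 beside Hpx −0.22 and −0.58.

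Outside the group, 6 genes were named by likeness: those that code for protein, averaged 5 CPM or more, and whose log2 ratio lay closest to the group's median of 7.85. They were Plg at 8.02, Serpinf2, F2 and Apom at 7.66, Hnf4a at 7.64 and Apoa1 at 8.13. Likeness here is the distance between log2 ratios over 2 libraries, at most 0.27. Plg and F2 encode plasminogen and prothrombin, and Serpinf2 encodes the plasmin inhibitor.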

How the data were processed

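The deposited values are raw read counts per gene, in 3 columns by strand, with 4 summary entries. STAR, HTSeq, DESeq and mm10 are named in the submitters' processing notes, with neither version nor role; the release of the gene annotation is not stated.

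The reverse-strand column was used, which held 19.3 and 20.5 times the reads of the forward column. The summary entries (17.2% and 18.0% of reads, among them reads with several map positions) were left out. Libraries were scaled by TMM (edgeR 4.0.16, R 4.3.3). Log2 ratios used a prior count of 0.5 and exact Clopper-Pearson intervals (Python 3.11.15, scipy 1.17.1). For bounds and fold counts, 0 reads were set to a floor of 3 reads, 0.0968 CPM (wild type) or 0.113 CPM (H222P). Positions and exon lengths come from GENCODE M21. Of 218 listed symbols, Ahsp had no entry. No test of genotypes was possible with 1 library each.

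The 10 genes, the lists and the naming rule were chosen with earlier results of these data known. That rule names all 10 genes, the 6 most alike, the neighbours of the albumin family, the carriers, receptors and transcription factors, and from other lists the highest, lowest and most abundant gene and markers at 0. Myl7, Sftpb and neighbours of the other carriers were named after their values were seen. A few genes that the rule names are not reported here. The computation was tested on simulated data. DESeq2 1.42.0 size factors were 1 of 10 alternatives.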

Additional observations from a re-analysis of the deposited data

Results flagged for a closer look

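The forward-strand column, which no comparison used, held 276 reads assigned to the 10 carriers in the H222P library and 7 in the wild-type library. They amounted to 0.180% and 0.717% of the carriers' reverse-strand reads. Of the 276, 110 lay on Afp, 87 on Alb and 33 on Ambp, where they were 1.46% of the reverse-strand reads.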

How the results depend on the processing

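The 10 carriers stayed at least 2-fold higher under 9 of 10 alternatives, and all 10 log2 ratios kept their sign under every setting that gave one. Of 99 single-gene values under alternatives, 91 stayed within the main counting interval and 8 left it. Scaling by the cardiomyocyte genes raised Alb to 11.16, Afp to 9.71, Trf to 4.84 and Rbp4 to 7.90, moved Ttr past its interval too, and total counts raised Trf to 4.06. A prior count of 5 lowered Ambp to 8.79 and Afm to 5.27. The lowest value was 3.88, for Trf with DESeq2 size factors. The filter at a mean of 5 CPM left Afm out, so 9 carriers were counted there. The counts over all genes moved most. Without a filter 4746 genes were at least 2-fold higher, 4038 lower and 583 at least 10-fold higher. At a mean of 5 CPM there were 394, 333 and 103, since fewer genes were counted. Scaling by cardiomyocyte genes gave 6330, 126 and 354 and moved the median of all genes to 0.93. Total counts moved that median to 0.15. With the longest coding transcript as length, 8 of 10 carriers kept their place in the wild-type order and 10 of 10 in the H222P order. No paired analysis was possible because each genotype had 1 library, which also left no replicate to leave out. Afm, Gc and Ambp had 0 to 2 wild-type reads, so their ratios are bounded by depth.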

Other observations

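Epithelial genes of lung, gut and pancreas also differed between the libraries. Sftpc, the surfactant protein of distal lung epithelium, had 211 wild-type reads and 1 H222P read, 180.4-fold lower in the mutant (32.0 to 7157). Nkx2-1, a lung and thyroid factor, had 381 and 161 reads, and Sftpb 30 and 6. Genes of pancreas and gut had more reads in the mutant, at low counts: Pdx1 had 0 and 32 reads, Cdx2 0 and 9, and Ptf1a 0 and 6. Of 6 measured genes in this list of 15, 3 passed 2-fold upward in the mutant and 2 downward. The summed level of the list was 63.8 CPM in the wild-type and 53.9 CPM in the H222P library. Etv5 alone held 37.6 and 30.8 CPM of these sums.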
